A study of Mus musculus with 31 samples.

Results

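Female mice with 2 Met alleles of Bdnf were compared with female Val/Val littermate controls, using RNA-Seq of whole hearts taken at 8 weeks of age. The comparison holds 12 of the 31 hearts in the series, 6 female Met/Met and 6 female Val/Val, chosen by the sex and genotype in their labels. The other hearts are 4 female Val/Met hearts and 15 male hearts of the same 3 genotypes. Every sample, controls included, carries the transgene label hBDNF. The Met allele is a knock-in of mutated human BDNF and was bred from heterozygous pairs, so that Val/Val mice, which make the normal mouse protein, differ from Met/Met mice in the species of the protein as well as in the Val-to-Met change.

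BDNF is a secreted growth factor of the neurotrophin family. It is made as a precursor, sorted into secretory vesicles with help from sortilin, and signals through the receptor tyrosine kinase TrkB, while its precursor binds the receptor p75NTR. The Met change lies in the part of the precursor that is cut off, and is known for weakening the sorting and the activity-driven release of the protein in neurons. In the heart, BDNF signaling is known to act on contraction, blood vessels and nerve supply.

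Expression is given in normalized counts, the authors' unit. Summed over genes, Val/Val hearts had 28268518 to 28424130 of these units and Met/Met hearts 29106546 to 29448802, without overlap. The part of this difference in the fold changes of the most abundant RNAs was not tested. The read depth of single values cannot be had from the table, so the spread between hearts is the only error given. Log2 fold changes are differences of mean log2 values, Met/Met minus Val/Val, with a standard error (SE) and a Benjamini-Hochberg adjusted p from limma, and "rose" and "fell" are used for an adjusted p under 0.05. Of the 12 hearts, 2 Val/Val and 3 Met/Met hearts came from the first sequencing project and 4 Val/Val and 3 Met/Met hearts from the third. Both genotypes were thus in both projects, in unequal shares. In the deposited values both projects have the same mean for each gene within a genotype, to within 1.22e-05 on the log2 scale, so a fold change within 1 project is no separate check of that in the other, and what the unequal shares left in the genotype means cannot be read from the table. The model therefore had 1 mean per group and project, which left 17 residual degrees of freedom over all 31 hearts. Val/Val replicate 4 and Met/Met replicate 2 stood apart. Their median Spearman correlations with the other hearts were 0.9792 and 0.9882, against 0.9905 to 0.9934 in the other 10, and their deviations from their group means were correlated with each other across genes (r = 0.67), though genes are not independent replicates.

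Most of the genes called between the genotypes were lower in Met/Met hearts. Of 13733 genes tested, 44 passed the adjusted threshold, which is 0.32% of the genes. Of these 44 genes, 9 rose (0.0655% of the genes tested) and 35 fell (0.255%), and in 40 of them no Met/Met heart overlapped a Val/Val heart, against 276 genes (2.01%) without overlap in the whole table, 83 higher (0.604%) and 193 lower (1.41%). By the criterion of the study's methods, an unadjusted p under 0.05 with a 1.5-fold difference, 103 genes were counted (0.75%), 49 higher (0.357%) and 54 lower (0.393%), and 172 without Met/Met replicate 2. Over all genes the median log2 fold change was -0.008. Of the 44 genes, 41 code for proteins. The count of 44 depends on the model, and was 511 (170 higher and 341 lower) when the project means were not counted in the residual degrees of freedom, and 25 without the trend of the spread with expression.

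The genes that moved most fall into a few kinds. The largest falls were those of CT010467.1 and Lars2, which are treated with the ribosomal RNAs below, and of Dbp, a transcription factor at the output of the circadian clock. Next came Chac1, an enzyme that breaks down glutathione, and then Klhl38, a kelch-family gene of muscle, and Tcap, the titin cap of the sarcomere. The largest rises were those of the clock genes Arntl and Nfil3, followed by Cabp1, a neuronal calcium-binding protein.

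**Figure D1:**
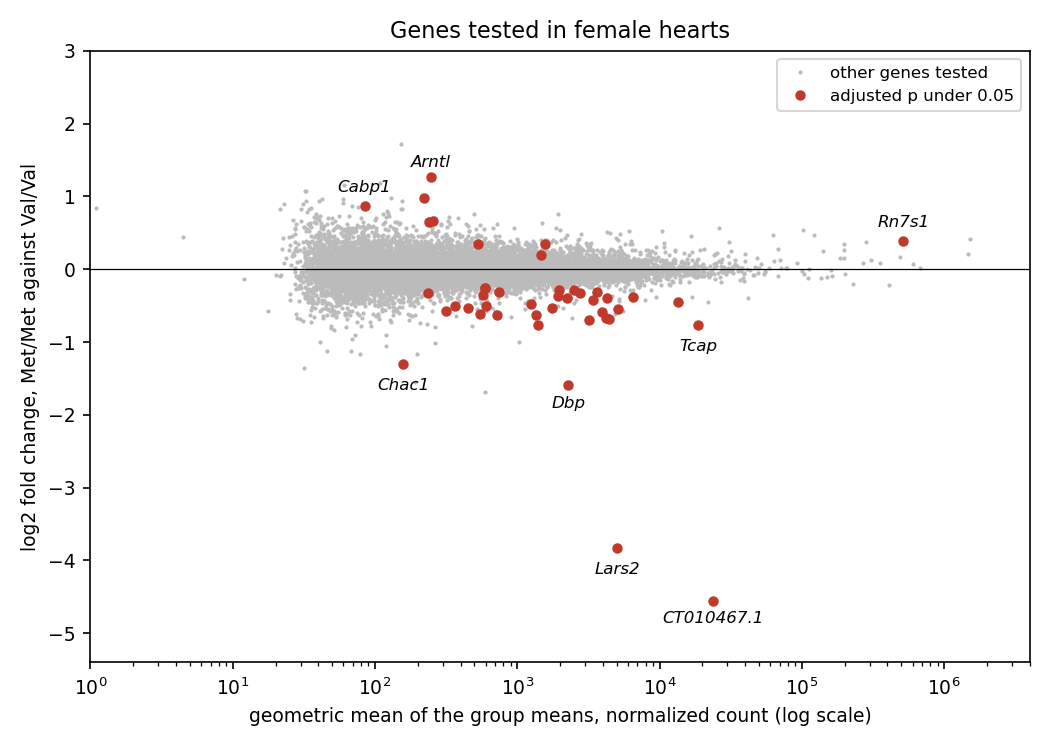
Log2 fold change of each gene tested, Met/Met against Val/Val, on the vertical axis against its level on the horizontal axis (geometric mean of the group means in normalized counts, log scale). Each point is a gene and the 44 genes with an adjusted p under 0.05 are in red, 35 of them below 0 and 9 above.

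Single hearts mattered for the number of calls. When each of the 12 hearts was left out in turn, 21 of the 44 genes were called every time and 23 lost the call at least once. No gene changed direction, which could not happen in the 40 genes without overlap. The 21 were Arntl, Nfil3, Cry1 and Cabp1 among those that rose, and Dbp, Tef, Tcap, Klhl38, Art1, Stc2, Chac1, Herpud1, Sesn1, Pik3ip1, Hbp1, Gabarapl1, Stk11ip, Arrdc3, Tcp11l2, Lars2 and CT010467.1 among those that fell. The count was 59 without Met/Met replicate 2, 41 without Val/Val replicate 5, 37 without Met/Met replicate 4, and 22 to 25 without any of the remaining 9 hearts. Without both hearts that stood apart, 29 genes were called, 27 of them among the 44. When the 12 hearts compared were fitted alone, 25 of the 44 were called, and Hbp1, Gabarapl1 and Cry1 lost their calls, with adjusted p-values of 0.0691, 0.0536 and 0.0511.

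Bdnf itself did not differ by more than the spread between hearts. Its normalized count ran from 202 to 254, with a median of 233, in Val/Val hearts and from 162 to 272, with a median of 176, in Met/Met hearts, so that the genotypes overlapped. The log2 fold change was -0.25 (SE 0.182, adjusted p = 0.655), with a 95% interval from -0.6 to 0.11. The table gives 1 value for Bdnf and none by allele, so it does not check the genotype labels. Reads were aligned to the mouse genome, and whether those of the human Met allele were counted as fully was not tested.

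Of 18 genes of neurotrophin ligands and receptors, 10 were in the table and none passed the adjusted threshold. At an unadjusted p under 0.05, 1 was higher and 2 were lower, beside 4.06% higher and 6.45% lower among all genes tested (10.5% in all). The same shares stand beside the counts of every list below. The genes for TrkA, TrkB and p75NTR were not analysed here. Both of the lower genes code for sorting receptors of 1 family, sortilin (Sort1) and Sorcs2, and sortilin is known to bind the precursor of BDNF. Sorcs2 stood at 951 to 1190 normalized counts in Val/Val and at 739 to 923 in Met/Met hearts without overlap (log2 fold change -0.33, adjusted p = 0.21). Sort1 stood at 1653 to 1947 and 1182 to 1884, overlapping through Met/Met replicate 4 (log2 fold change -0.34, adjusted p = 0.181), and its adjusted p was 0.0294 without that heart and up to 0.361 without another.

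Among sarcomere genes, Tcap fell and no other gene passed the adjusted threshold. Tcap (GENCODE M21 on GRCm38, chromosome 11, 98383811 to 98384953) codes for telethonin, which ties the ends of titin together at the Z-disc. Its normalized count ran from 21314 to 27565, with a median of 24358, in Val/Val hearts and from 13686 to 14875, with a median of 14350, in Met/Met hearts. Every Met/Met heart lay under every Val/Val heart, and the Met/Met hearts varied less, with an SD of 473 against 2716. Met/Met replicates 4 and 5 both stand at 14110. The log2 fold change was -0.76 (SE 0.0805, adjusted p = 3.29e-05), or 1.7-fold lower. By contrast, Myl2, the ventricular regulatory myosin light chain, had a log2 fold change of 0.02 with a 95% interval from -0.1 to 0.13. Pairs of hearts share equal Myl2 values in both genotypes, so the spreads of Tcap and Myl2 are not those of fully independent measurements. Of 35 sarcomere genes, 1 passed the adjusted threshold. Tcap, Trim63 and Lmod2 were lower at an unadjusted p under 0.05 and none was higher. Trim63, the muscle ubiquitin ligase MuRF1, had a log2 fold change of -0.24 (adjusted p = 0.118), and Lmod2, which lengthens thin filaments, one of -0.18 (adjusted p = 0.161).

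Klhl38, Art1 and Art5 are described here with Tcap as genes known from striated muscle, but belong to no list. Klhl38 (chromosome 15, 58314573 to 58324169) went from 1842 ± 259 to 1078 ± 107 normalized counts (SD, n = 6 each), a log2 fold change of -0.77 (SE 0.117, adjusted p = 0.00232). The highest Met/Met heart, at 1238, lay under the lowest Val/Val heart, at 1492. Art1 and Art5, neighbouring genes for ADP-ribosyltransferases that modify proteins with ADP-ribose, fell together. Art1 ran from 3901 to 4131 in Val/Val and from 2944 to 3549 in Met/Met hearts, with a log2 fold change of -0.31 (adjusted p = 0.00232). Art5 ran from 371 to 403 and from 220 to 289 (log2 fold change -0.58, adjusted p = 0.0452), and lost the call whenever a heart was left out, with adjusted p-values from 0.0546 to 0.118. The spans of these genes overlap by 7747 bases on opposite strands, so without knowledge of how strand was used in counting, their reads cannot be told apart. Art1 and Art5 were singled out after their values were seen.

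Stc2, which codes for the secreted glycoprotein stanniocalcin 2, was among the steadiest falls. Its normalized count was 818 to 919 in Val/Val hearts and 534 to 615 in Met/Met hearts. All hearts of a genotype stayed close together, and the gap between the genotypes was wider than the spread within them. The log2 fold change was -0.63 (SE 0.0801, adjusted p = 0.000516), and the adjusted p stayed between 0.00083 and 0.00264 when single hearts were left out.

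**Figure D2:**
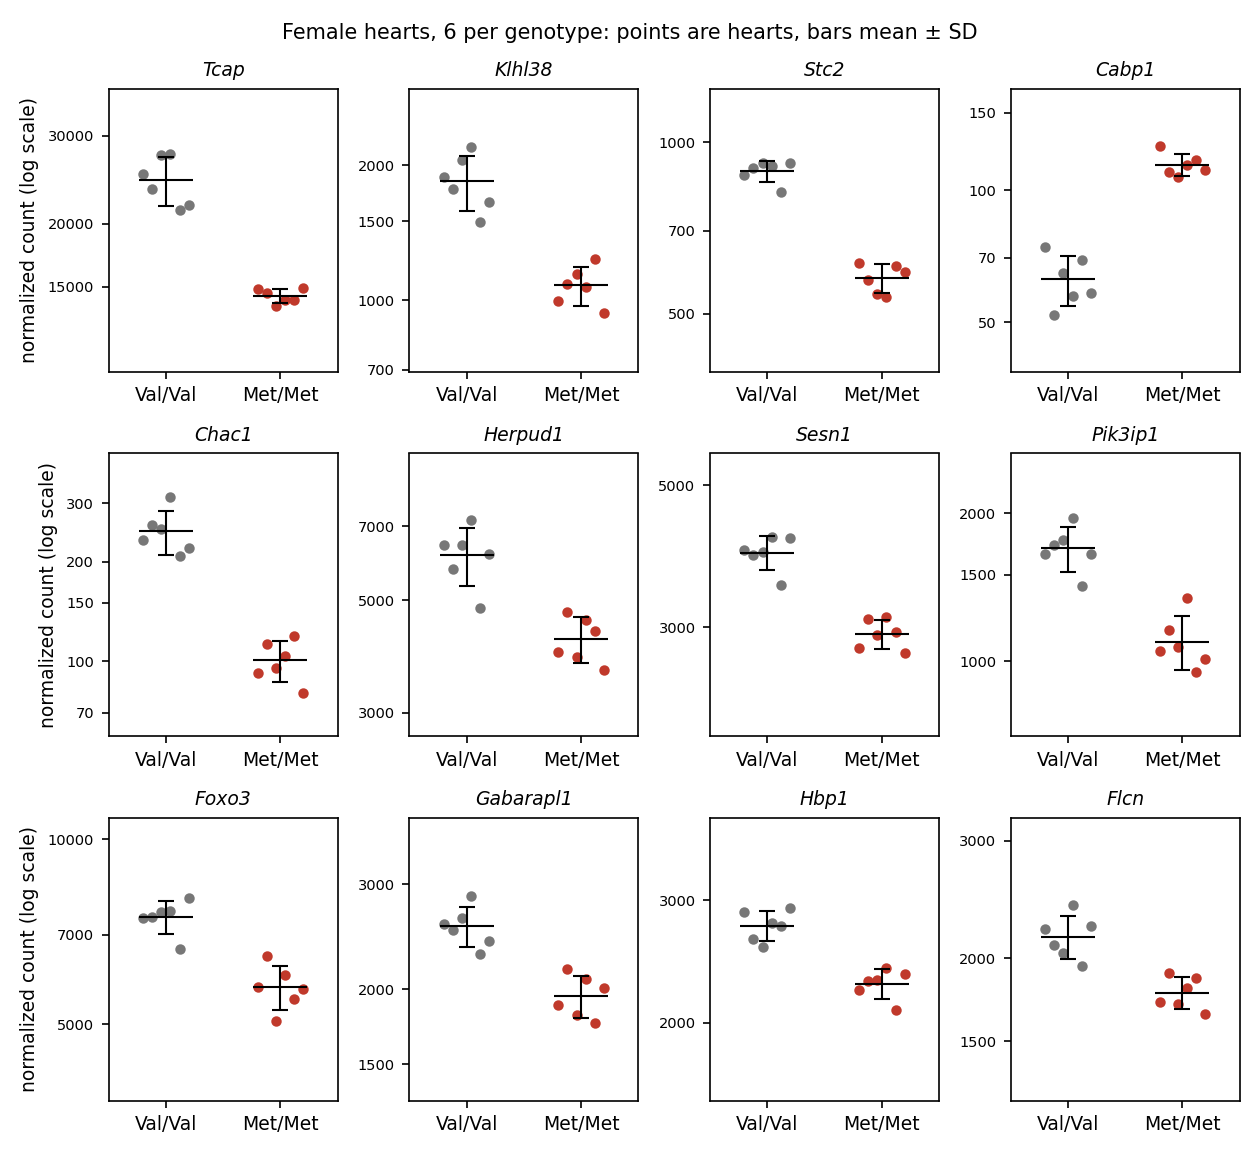
Normalized counts (vertical axis, log scale) in the 6 Val/Val (grey) and 6 Met/Met (red) female hearts for 12 of the called genes. Points are hearts and bars give the mean ± SD, and in each of these genes the genotypes do not overlap, with Cabp1 higher and the other 11 lower in Met/Met hearts.

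Several called genes belong to the response to low insulin and low nutrients. FoxO transcription factors are held out of the nucleus when insulin activates the kinases PI3K and AKT, and otherwise switch on genes for protein breakdown, autophagy and growth arrest. The lists used for this theme were written after the values had been seen, so their counts describe these hearts and support nothing further. Of 37 FoxO and insulin signaling genes, 5 fell and 1 rose. At an unadjusted p under 0.05, 13 were lower and 1 was higher, and the median log2 fold change of the list was -0.14.

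Foxo3 itself ran from 6642 to 8021 normalized counts in Val/Val hearts, with a median of 7551, and from 5073 to 6467 in Met/Met hearts, with a median of 5738. The log2 fold change was -0.38 (adjusted p = 0.025), and the gene was called in 3 of the 12 fits that left out a heart. Sesn1 codes for sestrin 1, which restrains mTORC1 when leucine is low. It fell from 3923 ± 236 to 2928 ± 152 normalized counts (SD, n = 6 each, log2 fold change -0.42, SE 0.0636, adjusted p = 0.00232). Part of its span, 2584 bases, is shared with the tested gene 9930024M15Rik on the same strand. Pik3ip1, an inhibitor of PI3K, fell from 1698 ± 176 to 1098 ± 139 normalized counts (log2 fold change -0.63, SE 0.0998, adjusted p = 0.00309). In the opposite direction, Pik3r3, a regulatory subunit of PI3K, rose from 472 ± 19.9 to 597 ± 36.8 (log2 fold change 0.34, adjusted p = 0.0424), a call kept in 3 of the 12 fits that left out a heart.

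Hbp1, a repressor of growth genes, fell by 0.28 on the log2 scale (adjusted p = 0.00572), with 2574 to 2922 normalized counts in Val/Val and 2084 to 2401 in Met/Met hearts. Its span overlaps that of Cog5 on the opposite strand. Glul, the enzyme that makes glutamine from glutamate and ammonia, went from 15638 ± 1483 to 11446 ± 1301 normalized counts (adjusted p = 0.0494), with overlap between the genotypes and a call in 2 of the 12 fits. Members of the list that did not pass include Fbxo32, the ubiquitin ligase atrogin-1, at 8721 to 9623 in Val/Val and 6119 to 8422 in Met/Met hearts without overlap (log2 fold change -0.42, adjusted p = 0.0577), and Klf15, at 2966 ± 413 and 2143 ± 242 (log2 fold change -0.46, adjusted p = 0.0543). Outside the list, Arrdc3, an arrestin-domain gene that was singled out after its values were seen, fell by 0.37 on the log2 scale (adjusted p = 0.0132).

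Of 46 autophagy genes, 2 fell, and the median log2 fold change was -0.06. At an unadjusted p under 0.05, 9 were lower (19.6%, beside 6.45% of all genes tested) and none was higher. Gabarapl1 codes for a protein that is joined to the autophagosome membrane. It ran from 2297 to 2871 normalized counts in Val/Val hearts and from 1758 to 2161 in Met/Met hearts, without overlap (log2 fold change -0.39, SE 0.0652, adjusted p = 0.00572). Pik3c3, the lipid kinase Vps34 that starts the forming membrane, went from 649 ± 25.9 to 542 ± 19.6 (adjusted p = 0.0494), a call kept in 1 of the 12 fits that left out a heart. Ulk1, the kinase at the head of the pathway, had a log2 fold change of -0.25 (adjusted p = 0.0683), and Atg14, a partner of Vps34, one of -0.34 (adjusted p = 0.118).

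The list of 46 genes of nutrient sensing by mTORC1 held 2 genes that fell, Sesn1 and Flcn, with a median log2 fold change of -0.04. At an unadjusted p under 0.05, 8 were lower (17.4%, beside 6.45% of all genes tested) and none was higher. Flcn, folliculin, acts at the lysosome in the sensing of amino acids. It went from 2155 ± 163 to 1774 ± 98.3 normalized counts (SD, n = 6 each, adjusted p = 0.0378), and was called in 3 of the 12 fits that left out a heart. Its partner Fnip2 had a log2 fold change of -0.29 (adjusted p = 0.133). Stk11ip, which codes for a protein that binds the kinase LKB1 and was also singled out after its values were seen, fell from 437 ± 53.4 to 307 ± 21.3 (log2 fold change -0.5, adjusted p = 0.00232).

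Of the endoplasmic reticulum stress genes, Chac1 and Herpud1 fell. Stress in this compartment, where secreted proteins fold, acts through the sensors PERK, IRE1 and ATF6, and PERK raises the transcription factor ATF4. Of 32 genes, 2 fell and none rose, with 4 higher and 3 lower at an unadjusted p under 0.05. Chac1, a target of ATF4, ran from 208 to 314 normalized counts in Val/Val hearts, with a median of 241, and from 80.2 to 119 in Met/Met hearts, with a median of 99.7. The genotypes were far apart, with a log2 fold change of -1.3 (SE 0.198, adjusted p = 0.00232), or 2.46-fold lower. Herpud1, a membrane protein in the removal of misfolded proteins, ran from 4836 to 7213 and from 3645 to 4750 (log2 fold change -0.55, SE 0.0936, adjusted p = 0.00626). Ern1, the sensor IRE1, had a log2 fold change of -0.26 (adjusted p = 0.184). The folding helpers Dnajc3 and Manf did not pass the adjusted threshold, with log2 fold changes of 0.32 (adjusted p = 0.409) and 0.26 (adjusted p = 0.468). Atf4 itself had a log2 fold change of 0.0 (adjusted p = 0.994). Other members of the list did not pass either, with 0.2 for Ddit3 (adjusted p = 0.572), -0.26 for Trib3 (adjusted p = 0.684) and -0.36 for Asns (adjusted p = 0.559).

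The promoters of Chac1 and Herpud1 are shown because, of the 35 called genes with a promoter in the RefSeq table, only these held the letters TGATGNAA of the ATF4 element, searched on both strands in the 250 bases before the start. Among 9758 tested genes with a promoter there, 1.91% held it. Capitals mark the match, which in both genes is read on the opposite strand. It lies from base -193 to -186 before the start of Chac1 and from base -112 to -105 before that of Herpud1. A match describes the letters and not a bound site.
Chac1, GRCm38.p6 chr2:119350992-119351241, plus strand: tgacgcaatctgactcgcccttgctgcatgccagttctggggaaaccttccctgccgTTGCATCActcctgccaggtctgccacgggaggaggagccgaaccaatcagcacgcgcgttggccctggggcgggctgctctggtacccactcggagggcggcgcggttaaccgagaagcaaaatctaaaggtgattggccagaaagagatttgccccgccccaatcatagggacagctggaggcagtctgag
Herpud1, GRCm38.p6 chr8:94386179-94386428, plus strand: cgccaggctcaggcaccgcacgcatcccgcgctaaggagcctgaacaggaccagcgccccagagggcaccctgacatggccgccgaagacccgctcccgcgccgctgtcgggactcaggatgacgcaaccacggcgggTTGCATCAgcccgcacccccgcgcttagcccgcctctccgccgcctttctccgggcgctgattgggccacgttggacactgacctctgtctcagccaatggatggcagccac

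The same search for the clock E-box, CACGTG, found it in 8.6% of all promoters and in 5 of the 35, those of Art5, Cry1, Dhx40, Slc25a33 and Tef. The FoxO letters GTAAACA were in 2.04% of all promoters and in 2 of the 35, those of Cry1 and Hbp1. The D-box letters TTATGTAA, which bind Dbp and its relatives, were in 0.441% of all promoters and in 0 of the 35. The letters CCACG, from the endoplasmic reticulum stress element, were in 41.7% of all promoters and in 19 of the 35, Chac1 and Herpud1 among them.

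Calcium handling showed 1 call in 34 genes, the rise of Cabp1 (chromosome 5, 115168689 to 115194381). Cabp1 resembles calmodulin and is known to tune calcium channels and inositol trisphosphate receptors in neurons. It was low, at 52 to 74.3 normalized counts in Val/Val hearts, and 107 to 126 in Met/Met hearts. No hearts overlapped, and the log2 fold change was 0.87 (SE 0.129, adjusted p = 0.00228), or 1.83-fold higher. Its targets did not pass, with a log2 fold change of -0.24 for Itpr3, an inositol trisphosphate receptor (adjusted p = 0.447). Atp2a2, the calcium pump SERCA2, had a log2 fold change of 0.07 with a 95% interval from -0.13 to 0.28. Its values were 454174 to 742920 in Val/Val and 588745 to 623555 in Met/Met hearts. Several hearts of a genotype share exactly the same Atp2a2 value. Such ties occur in 26 of the 28 genes with a mean over 100000 (92.9%). They occur in 30% of genes with a mean from 10000 to 100000 and in 1.5% with a mean up to 10000. The spread of the most abundant genes is therefore not that of independent measurements.

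Of 15 cardiac stress genes none passed the adjusted threshold. Nppb, the natriuretic peptide BNP that the strained heart secretes, ran from 1125 to 1657 normalized counts in Val/Val hearts and from 1336 to 6209, with a median of 2185, in Met/Met hearts. The genotypes overlapped and Met/Met replicate 2 was far above the rest. The log2 fold change was 0.76 (SE 0.272, adjusted p = 0.287), and 0.48 without that heart (adjusted p = 0.241). Atf3, a stress-induced transcription factor, was also highest in Met/Met replicate 2, at 259, with a log2 fold change of 0.71 (adjusted p = 0.368) and of 0.5 without it.

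No gene for excitation or adenosine signaling passed the adjusted threshold. Of 39 ion channel and conduction genes, 8 were lower (20.5%, beside 6.45% of all genes tested) and none was higher at an unadjusted p under 0.05. Without both hearts that stood apart, 7 were lower. The median log2 fold change of this list was -0.07. Kcnip2, the subunit that shapes the transient outward potassium current, ran from 6009 to 6942 in Val/Val and from 5207 to 5948 in Met/Met hearts without overlap (log2 fold change -0.2, adjusted p = 0.224). Kcnj12, of the inward rectifier current, did not overlap either, at 1083 to 1229 and 958 to 1070 (adjusted p = 0.254). Of 10 adenosine signaling genes, 2 were lower and none was higher at an unadjusted p under 0.05, and the median log2 fold change was -0.02. These 2, the adenosine receptors Adora1, which slows the heart, and Adora2b had log2 fold changes of -0.58 (adjusted p = 0.0738) and -0.78 (adjusted p = 0.307). Adora1 ran from 621 to 805 and from 401 to 673, and its adjusted p was 0.018 to 0.175 with single hearts left out, under 0.05 without Met/Met replicate 6. Adora2b, at 33.5 to 105 and 27.1 to 44.9, was near the lowest levels tested.

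Circadian clock genes were the list with the most calls, 7 of 22, with 3 that rose (Arntl, Nfil3 and Cry1) and 4 that fell (Dbp, Tef, Nr1d1 and Bhlhe40). Dbp ran from 3640 to 4368 normalized counts in Val/Val hearts and from 1107 to 1502 in Met/Met hearts (log2 fold change -1.59, adjusted p = 6e-08). Nr1d1 and Bhlhe40 kept their calls in 1 and 2 of the 12 fits that left out a heart, with adjusted p-values up to 0.122. The hour at which hearts were taken is not given in the sources used here.

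Targets of the glucocorticoid receptor, whose hormone also follows a daily rhythm, were low as a list without a call. Of 25 genes, 22 had a log2 fold change below 0, against 52.5% of all genes tested, and the median was -0.22. At an unadjusted p under 0.05, 9 were lower (12 without both hearts that stood apart) and none was higher. Mt2, a metallothionein, stood at 347 ± 108 and 199 ± 56.6 normalized counts (log2 fold change -0.79, adjusted p = 0.211), and Cebpb at 2302 ± 387 and 1638 ± 395 (log2 fold change -0.51, adjusted p = 0.219). Per1 and Klf15 also belong to this list, and are clock or FoxO genes above. Fkbp5, a classic target, had a log2 fold change of -0.46 (adjusted p = 0.573).

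Fuel use gave no calls. Of 45 genes of fatty acid oxidation, 2 were higher and 3 lower at an unadjusted p under 0.05, and of 33 genes of glucose use, 3 were higher and 5 lower. Ucp3, a mitochondrial carrier induced by fatty acids, stood at 2499 ± 506 and 1740 ± 416 (log2 fold change -0.53, adjusted p = 0.368). Both glucose transporters did not overlap between genotypes, Slc2a1 at 537 to 630 and 411 to 501 (log2 fold change -0.31, adjusted p = 0.253) and the insulin-responsive Slc2a4 at 11586 to 12666 and 10050 to 11482 (log2 fold change -0.14, adjusted p = 0.3). Slc25a33, which carries pyrimidine nucleotides into mitochondria, fell from 674 ± 118 to 438 ± 71.3 (log2 fold change -0.62, adjusted p = 0.0452), and was called in 3 of the 12 fits that left out a heart.

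Respiratory chain subunits are encoded by both the mitochondrial and the nuclear genome. All 13 mRNAs of the mitochondrial genome had log2 fold changes above 0, with a median of 0.34, and 9 of them had an unadjusted p under 0.05, but none passed the adjusted threshold (1 did without both hearts that stood apart). Of the 78 nuclear genes of the chain, 1 was higher and 1 lower at an unadjusted p under 0.05. For mt-Nd1, a subunit of complex I, values ran from 168917 to 202360 in Val/Val and from 203241 to 232978 in Met/Met hearts (log2 fold change 0.27, adjusted p = 0.114). For mt-Nd2 they ran from 39408 to 62039 and from 59804 to 84377 (log2 fold change 0.47, adjusted p = 0.114, with 0.0473 without Met/Met replicate 2 and up to 0.232 without another heart). The tied values described for Atp2a2 touch these mRNAs as well, and for mt-Co1 all 6 Met/Met hearts hold the same value, so these p-values do not rest on full measurements of the spread. The 13 mRNAs come from shared transcripts and are not independent.

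**Figure D3:**
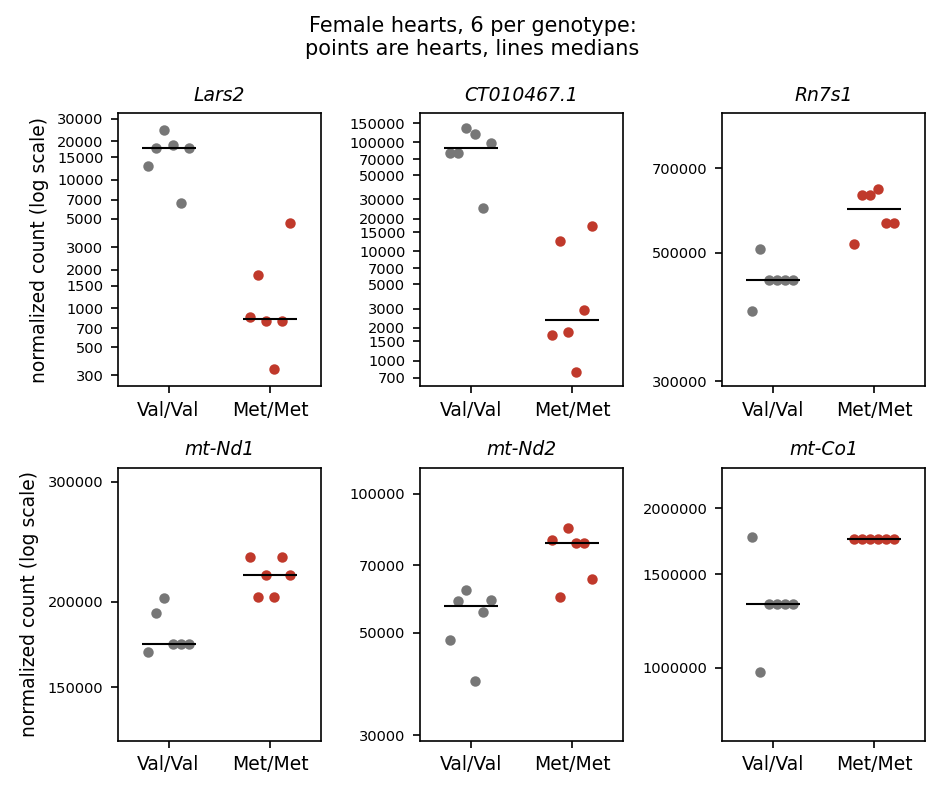
Normalized counts (vertical axis, log scale) of RNAs of ribosomal, 7S or mitochondrial origin in the 6 Val/Val (grey) and 6 Met/Met (red) female hearts, where points are hearts and lines medians. Lars2 and CT010467.1 are lower in every Met/Met heart. Equal heights within a genotype in CT010467.1, Rn7s1, mt-Nd1, mt-Nd2 and mt-Co1 are tied values in the deposited table.

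The largest fold changes were in RNAs linked to the ribosome. CT010467.1 (chromosome 17, 39846353 to 39848827) lies in ribosomal RNA sequence, and Lars2 (chromosome 9, 123366927 to 123462666), the gene for the mitochondrial leucyl-tRNA synthetase, is known for a stretch similar to ribosomal RNA. Reads from the many ribosomal copies can be assigned to either, so both values are uncertain as gene expression. CT010467.1 ran from 25216 to 136460 normalized counts in Val/Val and from 790 to 17247 in Met/Met hearts (log2 fold change -4.55, SE 0.833, adjusted p = 0.0132). Lars2 ran from 6636 to 24477 and from 335 to 4641 (log2 fold change -3.83, SE 0.617, adjusted p = 0.00354). Neither overlapped, although both varied several-fold within a genotype. For CT010467.1, Val/Val replicates 1 and 2 both stand at 79767. Met/Met replicate 6 was the highest Met/Met heart in both, and without it the log2 fold changes were -5.01 and -4.25. In female Val/Met hearts, which share the Val/Val controls, the means were 7886 ± 3191 and 2335 ± 1102 (SD, n = 4), with adjusted p-values of 0.564 and 0.523. The unadjusted p-values were 0.00137 and 0.000512, and neither RNA overlapped the Val/Val hearts, at 4813 to 11350 and 1199 to 3845. In male Val/Val hearts they ran from 7756 to 22070 and from 2480 to 4609, under every female Val/Val heart. In male Met/Met hearts they ran from 2533 to 65175 and from 884 to 6215, and only CT010467.1 overlapped female Val/Val hearts. The male log2 fold changes were -0.2 (adjusted p = 0.956) and -0.73 (adjusted p = 0.756). Why female Val/Val hearts were high was not tested.

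Rn7s1, a gene for the RNA of the signal recognition particle, rose from 449930 ± 34947 to 590952 ± 50372 normalized counts (SD, n = 6 each, log2 fold change 0.39, adjusted p = 0.027), with tied values in both genotypes. It was called in 6 of the 12 fits that left out a heart, and its adjusted p was 0.107 without both hearts that stood apart. The like-named Rn7s2, at means of 461088 and 522011, did not pass (log2 fold change 0.17, adjusted p = 0.682). Rn7sk, which holds back transcription elongation, had a log2 fold change of 0.28 (adjusted p = 0.345), and 4 of 16 structural RNAs were higher at an unadjusted p under 0.05. How much ribosomal RNA the libraries kept was not measured, and its part in these differences was not tested. The 81 ribosomal protein genes did not move with them, with 3 higher and 1 lower at an unadjusted p under 0.05.

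Immune and matrix genes gave little. Of 49 interferon response genes, 5 were higher (10.2%, beside 4.06% of all genes tested) and none was lower at an unadjusted p under 0.05. Without both hearts that stood apart, 3 were higher. The list had a median log2 fold change of 0.12 and no call. Among them Sp100, of nuclear bodies, stood at 508 ± 61.1 and 607 ± 73.9 (adjusted p = 0.252) and Oas2, a sensor of double-stranded RNA, at 141 ± 32.9 and 196 ± 44.9 (adjusted p = 0.362). Il10ra, a receptor subunit for interleukin 10, had a log2 fold change of 0.15 with a 95% interval from -0.26 to 0.55. Of 45 extracellular matrix genes, 4 were lower (8.89%, beside 6.45% of all genes tested) and none higher at an unadjusted p under 0.05. Mfap5, a protein of elastic microfibrils, fell from 540 ± 36.6 to 377 ± 55.4 normalized counts (log2 fold change -0.53, adjusted p = 0.0452), a call kept in 1 of the 12 fits that left out a heart.

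Vascular and chaperone genes are the remaining groups with named members. Of 32 genes of eNOS and cGMP signaling, 3 were higher and 2 lower at an unadjusted p under 0.05. Vegfa, the growth factor of endothelial cells, stood at 5687 ± 793 and 7178 ± 481 (log2 fold change 0.35, adjusted p = 0.22), and the water channel Aqp1 at 10693 ± 1228 and 8275 ± 1479 (log2 fold change -0.38, adjusted p = 0.207). Of 31 heat shock genes, 24 had a log2 fold change above 0 and 7 below 0, where 52.5% of all genes tested were below 0. At an unadjusted p under 0.05, 3 were higher (9.68%, beside 4.06% of all genes tested). Hsp90aa1, a chaperone in both lists, ran from 1552 to 1897 and from 2230 to 2493 without overlap (log2 fold change 0.4, adjusted p = 0.357). The lists for antigen presentation, hypoxia, immediate early genes, cholesterol synthesis, cell cycle and histones held no call, and at an unadjusted p under 0.05 they had 0 to 3 genes higher and 0 to 3 lower.

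**Figure D4:**
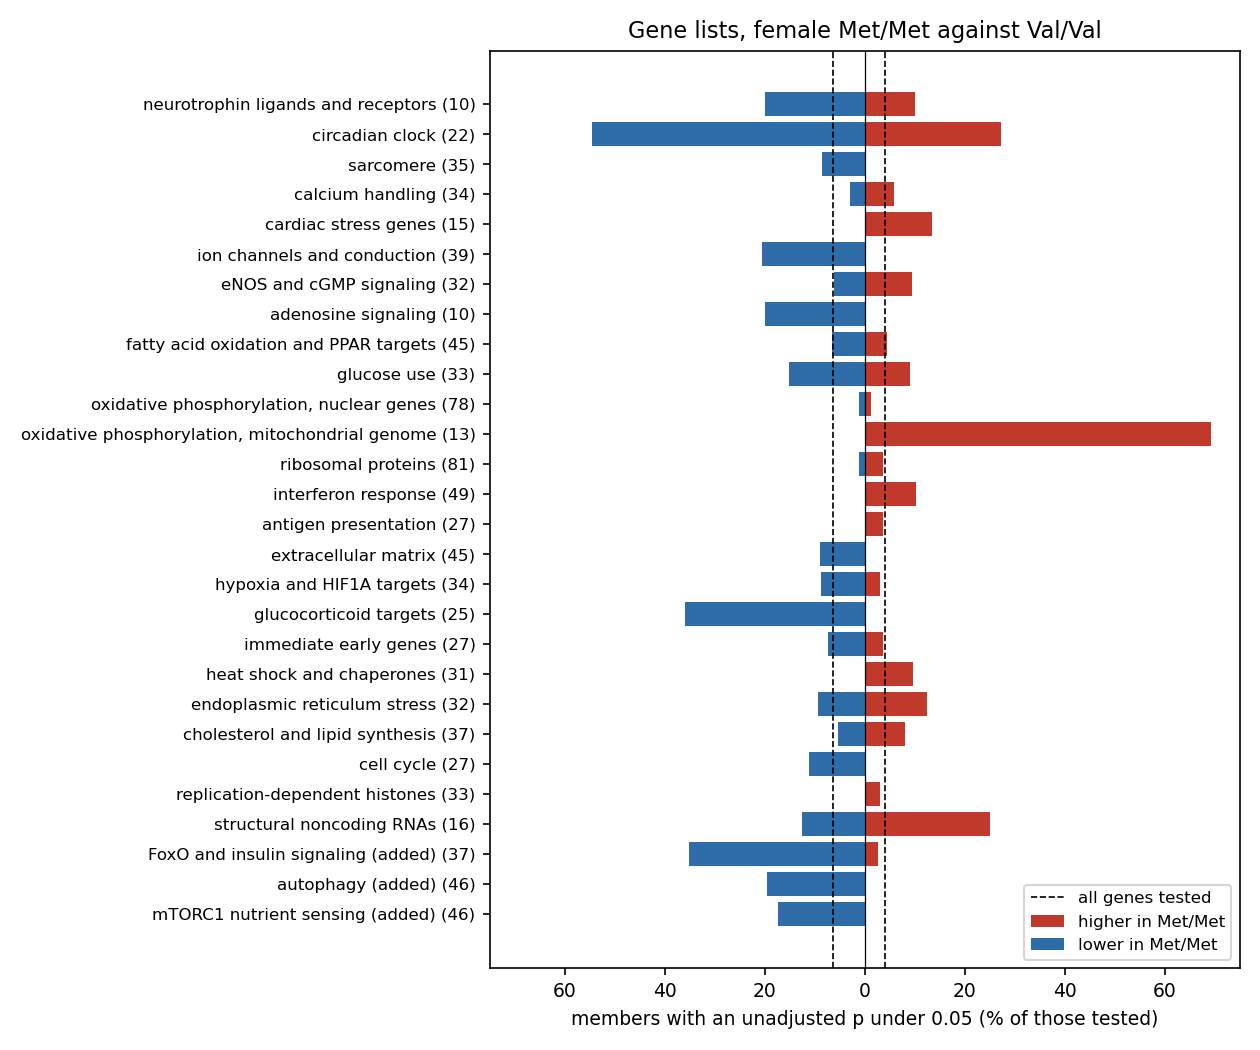
Share of each gene list with an unadjusted p under 0.05, higher in Met/Met to the right in red and lower to the left in blue, in percent of the members tested (number in brackets). Dashed lines give the share over all genes tested, 4.06% higher and 6.45% lower. The 3 lists marked as added were written after the values had been seen, and some genes are in more than 1 list.

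The remaining called genes belong to no list. Tcp11l2 ran from 5095 to 6140 normalized counts in Val/Val hearts and from 2532 to 4197 in Met/Met hearts (log2 fold change -0.69, adjusted p = 0.00572). Klf7, a transcription factor known from sensory neurons, rose from 1400 ± 82 to 1765 ± 28.7 (log2 fold change 0.34, adjusted p = 0.0378), and Bri3bp from 1370 ± 56.6 to 1577 ± 54.2 (0.2, adjusted p = 0.0494). Gm15542 rose from 205 ± 23.8 to 323 ± 32.7 (0.66, adjusted p = 0.027), but lies within the span of Psmd13 on the same strand. These 3 rises kept their calls in 2, 1 and 5 of the 12 fits that left out a heart. The other falls, outside the rule for named genes, were those of the kinase Pim3 (-0.67), Tmem86a (-0.5), Spsb1 (-0.48), the deubiquitinase Usp2 (-0.39), the Wnt receptor Fzd8 (-0.35), Ccdc149 (-0.33), the R-spondin receptor Lgr6 (-0.32), Zfyve21 (-0.31) and Dhx40 (-0.26), all log2 fold changes. Each of them lost its call without 1 or more single hearts, with adjusted p-values up to 0.147.

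Markers of cell types were compared because whole hearts hold many, and because fewer cells of a type and less RNA per cell cannot be told apart in bulk samples. All 10 ventricular cardiomyocyte markers were in the table and their summed normalized counts overlapped, at 1705882 to 1989193 in Val/Val and 1621058 to 1800631 in Met/Met hearts. Of all genes tested, 52.5% had a log2 fold change below 0. Mesothelial markers had log2 fold changes below 0 in 7 of 7 genes, with sums of 1622 to 3483 and 1068 to 2225, and atrial markers in 6 of 6, with sums of 2541 to 8323 and 2159 to 4412. Erythroid markers had log2 fold changes below 0 in 8 of 8 genes, with sums of 71351 to 118955 and 35631 to 130970. Endothelial markers had log2 fold changes above 0 in 9 of 10 genes, of which Cdh5 was at 0.0 after rounding, with sums of 27252 to 31685 and 29904 to 33878. Each of these ranges overlapped between genotypes, and 1 of these 31 mesothelial, atrial, erythroid and endothelial genes, Cldn5, had an unadjusted p under 0.05. Other markers went both ways. Log2 fold changes were above 0 in 5 of 10 fibroblast genes and 5 of 10 macrophage genes. They were above 0 in 5 of 9 smooth muscle and pericyte genes and 2 of 3 Schwann cell and neuron genes. In these lists Rgs5 and Ccr2 were higher and Col1a1 and Mfap5 lower at an unadjusted p under 0.05. Only Mfap5 passed the adjusted threshold. The part of cell composition in the gene results was not tested. Markers of lymphocytes, neutrophils, adipocytes and skeletal muscle were present with 1 or 2 genes each, and those of thymus and lung were not analysed here.

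The same genes in the other groups are given beside these values. In female Val/Met hearts, which were compared with the same Val/Val hearts, Tcap was at 22688 ± 1295 (log2 fold change -0.1), Stc2 at 702 ± 77.3 (-0.35), Chac1 at 187 ± 34.6 (-0.41) and Cabp1 at 94 ± 10.9 (0.59) (SD, n = 4). None of these had an adjusted p under 0.5. Their unadjusted p-values from limma were 0.264, 0.000839, 0.0809 and 0.000522. Stc2, at 623 to 783, and Cabp1, at 82.2 to 106, did not overlap the Val/Val hearts, while Tcap and Chac1 did. In male Met/Met hearts against male Val/Val hearts, the log2 fold changes were 0.23 for Tcap, -0.01 for Stc2, 0.01 for Chac1 and -0.47 for Cabp1. Mean counts in male Val/Val hearts were 12428 for Tcap, 588 for Stc2, 115 for Chac1 and 120 for Cabp1 (n = 5). In male Met/Met hearts they were 14632, 585, 114 and 87 (n = 4). For each of these genes, every heart of both male groups lay outside the female Val/Val range, on the side of female Met/Met hearts. Why female Val/Val hearts stood apart from both male groups was not tested. The difference between the sexes in log2 fold change, female minus male, passed the adjusted threshold for Tcap (-0.99, adjusted p = 0.000521), Cabp1 (1.34, adjusted p = 0.00276) and Stc2 (-0.62, adjusted p = 0.0408). It did not for Chac1 (-1.3, adjusted p = 0.0858). Over all genes this difference was called in 31 (0.226%).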

How the data were processed

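RNA-Seq of whole hearts was deposited by the authors as normalized counts per gene, a signal of 13840 genes in 31 hearts (0.721% of values whole within 1e-06). The study's methods name STAR 2.5.3a for alignment to mm10, where the submitters' processing notes name 3.5.1a, then Partek counts on Ensembl 83 scaled to total reads. The labels and the methods name different RNA extraction and library kits. Here log2(value + 0.0001) was fitted with limma 3.58.1 in R 4.3.3 (eBayes with trend, 2-sided) for 13733 genes whose mean reached 29, using 1 mean per group and sequencing project, weighted by hearts, in all 31 hearts. The procedure was tested on simulated data. Positions came from GENCODE M21 (13621 genes matched by symbol, 112 not).

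Named genes were the 10 largest rises and falls among called, non-overlapping protein-coding genes, 3 of each among other genes, the 3 smallest p of each list, other called list members and genes the study names. Some others are marked as chosen after their values were seen, as were 3 lists. Further list members given without such a mark, such as Dnajc3, Manf, Atf4, Fkbp5, Rn7s2, Rn7sk and mt-Co1, are also outside this rule. The hearts, lists and tests were chosen with earlier results of these data known. No pairing of the hearts by replicate number was seen, though a weak pairing could be missed. Nothing in the labels says that hearts of a group came from separate litters, so p-values measure the spread between these hearts. Alternatives changed the offset, minimum, model, hearts, block, scaling and trend. The values of 1 gene are not reported here.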

Additional observations from a re-analysis of the deposited data

Results flagged for a closer look

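The effect of Met/Met differed between the sexes, at an adjusted p under 0.05 for the female minus the male log2 fold change, in 16 of the 76 genes described, and in 31 of all genes tested (0.226%). Among clock genes the differences were -2.23 for Dbp (adjusted p = 3.42e-07), 1.53 for Arntl (0.0408), 1.4 for Nfil3 (0.00276), -0.66 for Tef (0.0408) and -1.1 for Bhlhe40 (0.00276). Among other genes they were -0.99 for Tcap (adjusted p = 0.000521), -0.35 for Art1 (0.0408), -0.62 for Stc2 (0.0408), -0.5 for Arrdc3 (0.0408) and -0.9 for Tcp11l2 (0.0408), and for the calcium-binding protein Cabp1 the difference was 1.34 (0.00276). Among the genes of the FoxO, autophagy and nutrient sensing lists they were -0.48 for Sesn1 (adjusted p = 0.0408), -0.81 for Pik3ip1 (0.0356), -0.35 for Hbp1 (0.0408), -0.51 for Gabarapl1 (0.0408) and -0.49 for Flcn (0.0177). All 16 are among the genes called in female hearts, and were named for that reason. Both male groups lay outside the female Val/Val range for Tcap, Stc2, Cabp1, Dbp, Arntl, Nfil3, Tef, Hbp1, Arrdc3 and Tcp11l2, on the side of female Met/Met hearts. For Bhlhe40, Art1, Gabarapl1 and Flcn, male Met/Met hearts overlapped that range and male Val/Val hearts did not. Both male groups overlapped it for Sesn1 and Pik3ip1. Why female Val/Val hearts stood apart for most of these genes was not tested. Male hearts that are alone in their group and project hold exactly their group mean, so the male side rests on fewer hearts than its n.

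A single heart lay far from the others of its genotype in 6 of 152 groups of hearts checked, where chance gives about 1 in 20. Met/Met replicate 2, which also stands apart over all genes, was highest for Nppb (6209 normalized counts) and Atf3 (259), and lowest for Atp2a2 (588745), where the other hearts share tied values. Val/Val replicate 4, the other heart that stands apart, was highest for Stk11ip (538). Met/Met replicate 6 was highest for Lars2 (4641) and Met/Met replicate 4 for Sort1 (1884).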

How the results depend on the processing

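The count of 44 genes at an adjusted p under 0.05 moved with the settings. It was 511 with no project means in the fit, 25 with eBayes without trend, 1 in the first sequencing project alone, 4 in the third, and 29 without both hearts that stood apart, an alternative chosen after seeing the data. Leaving out each heart in turn gave 22 to 59 genes, as listed by heart in the report. With the other settings the count was 32 to 61. All 44 genes kept their direction in every setting that tested them, but much of this was fixed beforehand. Fits of 1 project could not reverse a called gene, since both projects have the same mean within a genotype. Leaving out a heart could not reverse the 40 called genes without overlap between the genotypes. The cause of the shifts in the count was not tested, apart from the fewer hearts and degrees of freedom in the smaller fits. The count of 103 genes at p under 0.05 and 1.5-fold was 24 with a minimum mean of 290, where 8611 genes were tested, and 46 in the first project alone, and leaving out each heart gave 90 to 172. Of 1887 comparisons of the 76 named genes with their alternatives, 1589 stayed on their side of the threshold, 252 lost it, 46 gained it and 0 reversed.

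A replicate block in the 12 hearts compared gave 61 genes, 35 of them among the 44, and 144 at p under 0.05 and 1.5-fold. Same-numbered hearts correlated by -0.06 to 0.12 in their deviations, so no pairing by number was seen. A correlation over all genes could miss a weak pairing. Only numbers 4 and 6 matched best with their own.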
